A study of Macaca mulatta with 29 samples.

Results

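A set of 8 genes that hypoxia-inducible factor (HIF) is known to act on outside glycolysis were followed in rhesus macaque embryonic stem cells exposed to endocrine-disrupting compounds: ADM, VEGFA, BHLHE40, NDRG1, DDIT4, ANKRD37, CA9 and PTPRB. They were taken by symbol, 8 of 16048 genes in the table, with no cutoff on their values, and all 8 passed the filter on low expression. The members were chosen by their FPKM differences between compounds and vehicle, already known from these libraries, so values, differences and calls against vehicle are given as a description and support nothing. The cells were the established line ORMES-6, grown on a feeder layer of inactivated mouse embryonic fibroblasts in 5% oxygen, a condition that all groups shared. Colonies received methanol vehicle, the herbicide atrazine at 30 uM, the plasticizer di(2-ethylhexyl) phthalate (DEHP) at 5 uM, the surfactant perfluorooctanoic acid (PFOA) at 100 nM, the organotin tributyltin chloride at 25 nM or the plastics monomer bisphenol A at 10 nM, each for 4 weeks. There were 5 libraries per group and 4 for DEHP, 29 in all. Each group was 1 plate of 1 cell line, and each library was 1 well, so a compound cannot be told apart from its plate, and p-values measure the spread between wells.

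HIF is a transcription factor whose alpha subunit is hydroxylated by oxygen-dependent EGLN enzymes and then degraded through VHL. When oxygen is low the subunit persists, pairs with ARNT and switches on genes for vessel growth, acid balance, restraint of growth and glucose use. ADM and VEGFA encode secreted signals, BHLHE40 a transcriptional repressor, DDIT4 an inhibitor of the growth kinase complex mTORC1, and CA9 a membrane enzyme that hydrates carbon dioxide outside the cell. PTPRB encodes a receptor phosphatase best known from endothelium, NDRG1 a stress-responsive cytoplasmic protein and ANKRD37 a small ankyrin-repeat protein.

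Levels are in FPKM, reads scaled for transcript length and library size, so that they can be compared between genes. Differences are of log2(FPKM + 1), a scale on which low genes appear to change less than they do, and a gene is called where limma's adjusted p, over 11080 genes, is under 0.05. The 6 embryonic stem cell markers in the table summed to 1997 to 2497 FPKM in every library. Of 13 fibroblast markers 6 reached 1 FPKM and DCN was listed at 0 throughout; their sum ran from 95.3 to 150 FPKM, with group means of 105 with PFOA to 128 with bisphenol A. Relative to the deepest library, sequencing depth was 14.2 to 27.2% with bisphenol A and 41.2 to 100% elsewhere, so depth and compound cannot be told apart for bisphenol A.

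In vehicle cells the 8 genes covered a wide range. DDIT4 was the most abundant at 43.2 ± 9.03 FPKM (SD, n = 5), above 88.2% of all genes in the table, followed by VEGFA at 16.9 ± 1.19 FPKM. BHLHE40, NDRG1, PTPRB, ANKRD37, CA9 and ADM lay between 7.75 and 3.13 FPKM, in that order. The ratio of the highest to the lowest group mean was 2.92 for ADM and 2.23 for BHLHE40, and 1.25 for VEGFA.

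**Figure D1:**
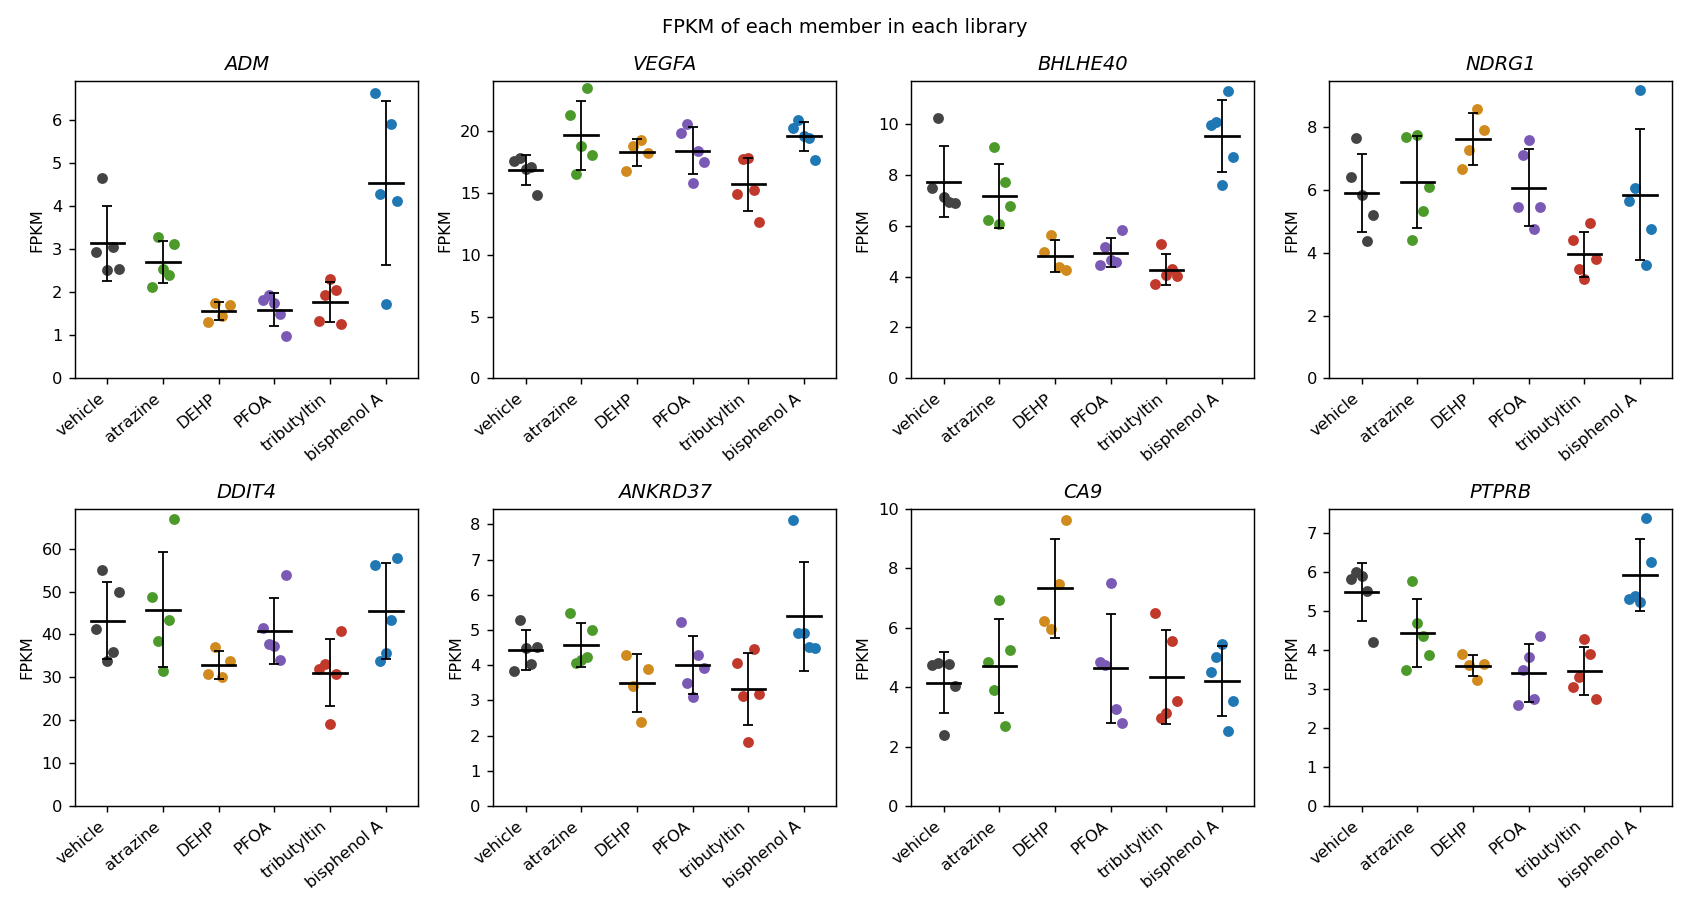
FPKM of the 8 genes (vertical axes, linear, from 0) in each of the 29 libraries by group; points are libraries, bars the group mean and whiskers 1 SD. ADM and BHLHE40 with DEHP, PFOA and tributyltin lie below all 5 vehicle libraries, CA9 is highest with DEHP, and VEGFA varies little.

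ADM, the vasodilator peptide adrenomedullin, was lower with 3 of the 5 compounds and had its highest mean with bisphenol A. The 5 vehicle libraries had 2.94, 4.64, 2.50, 3.05 and 2.53 FPKM. Tributyltin libraries had 1.32, 1.94, 2.30, 2.05 and 1.26 FPKM, and those with PFOA had 1.82, 1.94, 1.74, 1.48 and 0.976 FPKM. DEHP libraries had 1.32, 1.75, 1.45 and 1.70 FPKM. No library of these 3 groups reached the lowest vehicle library. Atrazine libraries overlapped vehicle, at 2.13, 3.29, 2.54, 2.40 and 3.12 FPKM. Bisphenol A libraries spread widely, at 6.62, 4.29, 1.71, 5.91 and 4.13 FPKM, from below all vehicle libraries to above them. ADM rested on few reads, 9 to 104 per library.

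As a difference from vehicle, ADM was -0.57 (SE 0.19) with tributyltin, -0.67 (SE 0.19) with PFOA, -0.67 (SE 0.20) with DEHP, -0.15 (SE 0.19) with atrazine and 0.36 (SE 0.19) with bisphenol A on the log2 scale. These 5 comparisons share the vehicle libraries, among them replicate 2, whose 4.64 FPKM stood apart from the other 4.

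VEGFA, the main growth signal for endothelium, differed least among the 8. Vehicle libraries had 17.6, 17.9, 17.0, 17.1 and 14.8 FPKM, and tributyltin libraries 14.9, 17.8, 17.8, 15.3 and 12.7 FPKM. The group means were 19.7 ± 2.77 with atrazine, 19.6 ± 1.19 with bisphenol A, 18.4 ± 1.88 with PFOA, 18.3 ± 1.10 (n = 4) with DEHP and 15.7 ± 2.17 FPKM with tributyltin. Every group overlapped vehicle, and each neighbour in the order of means overlapped the next. Where ADM was lowest, VEGFA differed from vehicle by 0.12 (SE 0.09) with PFOA, 0.11 (SE 0.10) with DEHP and -0.10 (SE 0.09) with tributyltin on the log2 scale.

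Transcripts of receptors for these signals were present in the same libraries. FLT1 and KDR, the VEGF receptors, had 21.9 ± 1.60 and 23.4 ± 3.20 FPKM in vehicle, and CALCRL, a part of the adrenomedullin receptor, 4.17 ± 0.106 FPKM. Of its listed partners, RAMP2 was not among the genes measured and RAMP3 passed the filter. The co-receptor NRP2 had 6.25 ± 1.29 FPKM and NRP1 lay under the filter at 0.897 FPKM. Of 9 tested ligands and receptors of both systems, none was called against vehicle for any compound by limma; 3 had an unadjusted p under 0.05 with tributyltin, 2 with atrazine, 1 each with PFOA and DEHP and 0 with bisphenol A, and limma voom on recovered reads called 2 with tributyltin and 0 elsewhere. Between compounds, tributyltin cells had less FLT1, 17.9 ± 1.85 FPKM, than the mean of atrazine, DEHP and PFOA (log2 difference -0.38, limma adjusted p = 0.00124) and less KDR, 17.7 ± 1.23 FPKM (-0.39, adjusted p = 0.0183). A single call of these 2 was lost without tributyltin replicate 1 or replicate 5, and both were lost with replicate numbers 2 to 4 alone. FLT1 was also lower with tributyltin than with bisphenol A (-0.30, limma adjusted p = 0.0304). That call was lost on those groups alone, with library weights and with replicate numbers 2 to 4 alone. It was also lost without tributyltin replicate 1, 4 or 5 or bisphenol A replicate 2 or 3.

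BHLHE40, a repressor that links hypoxia with the circadian clock, showed the cleanest separation of groups among the 8 members. Vehicle libraries had 7.50, 10.2, 7.14, 6.95 and 6.92 FPKM and atrazine libraries 6.23, 9.10, 6.06, 7.72 and 6.80 FPKM. Those with bisphenol A had 9.96, 10.1, 7.63, 11.3 and 8.70 FPKM. These 3 groups overlapped one another. PFOA libraries had 4.47, 5.16, 4.66, 4.58 and 5.84 FPKM, and DEHP libraries 4.96, 5.64, 4.38 and 4.27 FPKM. Tributyltin libraries had 3.71, 5.30, 4.06, 4.30 and 4.04 FPKM. All 14 libraries of these 3 compounds lay below every library of the other groups. This split was drawn after seeing the values, and the share of all genes that divide the same way was not counted. Atrazine and PFOA, next to each other in the order of BHLHE40 means, were the only neighbouring groups of any member whose ranges did not overlap.

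Against vehicle, BHLHE40 was -0.72 (SE 0.11) with tributyltin, -0.55 (SE 0.11) with PFOA, -0.58 (SE 0.12) with DEHP, -0.10 (SE 0.11) with atrazine and 0.27 (SE 0.11) with bisphenol A on the log2 scale. Its close relative BHLHE41, a repressor of the same clock loop, had 1.56 ± 0.363 FPKM in vehicle, 1.10 ± 0.172 with atrazine, 0.932 ± 0.225 with PFOA, 0.922 ± 0.206 (n = 4) with DEHP, 0.575 ± 0.125 with tributyltin and 1.74 ± 0.628 FPKM with bisphenol A. BHLHE41 was lower with tributyltin than with vehicle (-0.69, limma adjusted p = 0.00202) and than with bisphenol A (-0.77, adjusted p = 0.000674); the second call was lost with log2 depth as a covariate, on those groups alone and with replicate numbers 2 to 4 alone. It was 1 of 15 tested family members and partners of BHLHE40, NDRG1, CA9, ANKRD37 and DDIT4, and the only one called against vehicle. BHLHE41 lay close to the filter of 1 FPKM over all libraries. Its means with PFOA, DEHP and tributyltin were under that value, so it passed through the groups where it was higher. Both calls are therefore a description and support nothing.

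NDRG1, a gene induced by hypoxia and other stresses, was lowest with tributyltin. Vehicle libraries had 6.40, 7.66, 5.83, 4.37 and 5.21 FPKM, and tributyltin libraries 4.41, 3.49, 3.16, 4.94 and 3.79 FPKM. Atrazine libraries had 7.68, 4.42, 7.76, 5.34 and 6.10 FPKM and DEHP libraries 6.67, 7.29, 8.59 and 7.93 FPKM. The tributyltin range met those of vehicle and atrazine at its upper end and lay wholly below DEHP. The share of all genes with such a gap from DEHP was not counted. PFOA libraries had 5.45, 7.11, 7.61, 4.75 and 5.46 FPKM and bisphenol A libraries 5.66, 6.06, 9.17, 3.59 and 4.76 FPKM. Both of these ranges overlapped that of tributyltin. The highest mean of NDRG1 was with DEHP (7.62 ± 0.826 FPKM, n = 4), where ADM and BHLHE40 were low. Its relatives NDRG2 and NDRG3, at 27.3 to 33.4 and 25.3 to 28.4 FPKM as group means, were not called in any comparison with vehicle.

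DDIT4, also called REDD1, releases the TSC complex to restrain mTORC1, and is also induced by ATF4 and by glucocorticoids. Vehicle libraries had 41.4, 54.9, 33.8, 36.0 and 49.9 FPKM. Tributyltin libraries had 31.9, 33.1, 19.1, 30.8 and 40.7 FPKM, and DEHP libraries 30.7, 37.1, 30.0 and 33.9 FPKM. In both groups every library was below the vehicle mean, and the ranges overlapped vehicle. The means were 45.8 ± 13.4 with atrazine, 40.9 ± 7.69 with PFOA and 45.4 ± 11.2 FPKM with bisphenol A. The difference from vehicle was -0.48 (SE 0.19) with tributyltin and -0.36 (SE 0.20) with DEHP.

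None of 11 genes of the mTORC1 pathway downstream of DDIT4, among them TSC1, TSC2, RHEB and MLST8, was called by limma or by limma voom in the 5 comparisons with vehicle; at an unadjusted p under 0.05 there were 0 with tributyltin, 1 with atrazine, 2 with PFOA, 1 with DEHP and 0 with bisphenol A. The same was true of 9 tested genes, ATF4 and its targets. At an unadjusted limma p under 0.05 they gave 1, 1, 2, 2 and 0 genes in that order. It also held for 6 tested genes, the glucocorticoid receptor NR3C1 and its targets, which gave 1, 1, 1, 0 and 0. ATF4 itself had 244 FPKM in vehicle and 248 to 292 FPKM with the compounds. The transcripts measured give no reading of kinase activity.

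ANKRD37 had few reads, 12 to 69 per library. Vehicle libraries had 3.84, 5.30, 4.50, 4.04 and 4.51 FPKM, tributyltin libraries 4.06, 3.12, 1.81, 4.47 and 3.18 FPKM, and bisphenol A libraries 8.13, 4.92, 4.91, 4.52 and 4.48 FPKM. The highest tributyltin library, 4.47 FPKM, was just under the lowest bisphenol A library, 4.48 FPKM. The other means were 4.59 ± 0.626 with atrazine, 4.01 ± 0.824 with PFOA and 3.50 ± 0.820 FPKM (n = 4) with DEHP. Against vehicle the log2 difference ran from -0.36 (SE 0.16) with tributyltin to 0.21 (SE 0.16) with bisphenol A.

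CA9 followed a different order. Vehicle libraries had 4.75, 4.81, 2.39, 4.76 and 4.02 FPKM. DEHP libraries had 6.22, 5.96, 7.46 and 9.64 FPKM, all 4 above every vehicle library, a difference of 0.70 (SE 0.24) on the log2 scale. The remaining groups overlapped vehicle, with means of 4.72 ± 1.58 with atrazine, 4.63 ± 1.84 with PFOA, 4.34 ± 1.59 with tributyltin and 4.20 ± 1.19 FPKM with bisphenol A. CA12, another membrane carbonic anhydrase, had 3.82 ± 0.177 FPKM in vehicle and 4.79 ± 0.442 FPKM with DEHP (n = 4; 0.26, limma adjusted p = 0.491).

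PTPRB, which removes phosphate from the angiopoietin receptor TEK and from VE-cadherin in endothelium, moved much like BHLHE40. Vehicle libraries had 5.81, 6.00, 5.90, 5.52 and 4.22 FPKM, and bisphenol A libraries 5.32, 5.38, 5.23, 7.39 and 6.26 FPKM. Atrazine libraries lay between, at 3.49, 5.77, 4.70, 4.35 and 3.87 FPKM. The other compounds were lower. DEHP libraries had 3.90, 3.63, 3.23 and 3.65 FPKM, PFOA libraries 2.60, 3.49, 3.81, 2.75 and 4.37 FPKM, and tributyltin libraries 3.05, 3.31, 4.28, 3.89 and 2.76 FPKM. All DEHP libraries were below vehicle; PFOA and tributyltin had 4 of 5 libraries below it, meeting vehicle replicate 5 alone. The log2 differences from vehicle were -0.55 (SE 0.12) with tributyltin, -0.57 (SE 0.12) with PFOA, -0.49 (SE 0.13) with DEHP, -0.26 (SE 0.12) with atrazine and 0.09 (SE 0.12) with bisphenol A.

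Other endothelial genes were unevenly present. Of 9 endothelial markers in the table, TIE1, VWF, ERG, EMCN, ESAM and CLDN5 had means under 1 FPKM, while in vehicle KDR had 23.4 ± 3.20, TEK 9.95 ± 2.47 and CDH5 1.39 ± 0.236 FPKM. The summed level of the 9 ran from 26.2 to 42.6 FPKM, with group means of 35.9 in vehicle, 30.4 with tributyltin and 34.9 with bisphenol A; its part in the PTPRB values was not tested. TEK, the partner of PTPRB, had 10.2 ± 2.18 FPKM with tributyltin. None of 4 tested partners of PTPRB was called by limma or limma voom against vehicle, and 1, with atrazine, had an unadjusted p under 0.05. In bulk RNA, fewer cells of a type and less RNA per cell cannot be told apart.

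By the limma call against vehicle, 2 of 8 members were lower with tributyltin, BHLHE40 and PTPRB, where 1.05% of all genes were called lower, 0.199% higher and 1.25% in either direction. With the replicate number as a block they were joined by DDIT4, for 3 members. PTPRB lost its call without vehicle replicate 2 or 3 or without tributyltin replicate 1 or 5. With PFOA the same 2 were called lower, against 0.162% of all genes; neither was called without vehicle replicate 1, 2 or 3 or PFOA replicate 1, 2, 3 or 4, and BHLHE40 alone was called without vehicle replicate 4. With atrazine 0 members were called (0.19% of genes), with DEHP 0 (0.00903%) and with bisphenol A 0 (0%); at an unadjusted p under 0.05 there were 2, 4 and 2 members, and limma voom called 0, 1 and 0. The range of FPKM did not overlap vehicle for 2 members with tributyltin (2.33% of all genes), 2 with PFOA (1.29%), 4 with DEHP (2.55%), 0 with atrazine (1.17%) and 0 with bisphenol A (0.514%). Because vehicle comparisons chose the members, nothing is read from these counts.

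The compounds were then compared with each other, which the choice of members did not use directly, although the same treated libraries entered the comparisons with vehicle. Bisphenol A overlapped vehicle in every member, so contrasts with bisphenol A may largely repeat the differences that the choice used. The p-values between compounds are therefore also a description and give no independent support. Tributyltin was set against bisphenol A, and each of them against the mean of atrazine, DEHP and PFOA.

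Bisphenol A cells had more ADM, BHLHE40 and PTPRB than cells with the other 3 compounds. Of 8 members, 3 were higher, where 0.28% of all genes were called higher, 0.235% lower and 0.514% in either direction. BHLHE40 differed by 0.68 (SE 0.09, limma adjusted p = 0.000333), ADM by 0.86 (SE 0.15, adjusted p = 0.00771) and PTPRB by 0.53 (SE 0.10, adjusted p = 0.0128). ANKRD37 (0.34, adjusted p = 0.302), DDIT4 (0.18, 0.721), VEGFA (0.06, 0.835), NDRG1 (-0.19, 0.660) and CA9 (-0.30, 0.582) did not pass. The bisphenol A range overlapped that of the 14 libraries with atrazine, DEHP or PFOA for every member, and single atrazine libraries reached 9.10 FPKM of BHLHE40 and 5.77 FPKM of PTPRB. The calls ended when log2 depth was added as a covariate, where BHLHE40 was 0.83 (adjusted p = 0.084), ADM 1.13 (adjusted p = 0.0949) and PTPRB 0.84 (adjusted p = 0.086). ADM and PTPRB were also lost with replicate numbers 2 to 4 alone, and PTPRB without bisphenol A replicate 4.

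Tributyltin cells had less of 4 members than bisphenol A cells, where 1.6% of all genes were called lower, 0.903% higher and 2.5% in either direction. BHLHE40 differed by -0.99 (SE 0.11, limma adjusted p = 2.79e-06), from 9.54 ± 1.42 to 4.28 ± 0.608 FPKM (n = 5 each), and this call held in all 22 alternatives run. ADM differed by -0.93 (SE 0.19, adjusted p = 0.00550) and PTPRB by -0.64 (SE 0.12, adjusted p = 0.00364). Both calls were lost in fits on those groups alone and on replicate numbers 2 to 4 alone, and that of ADM also with log2 depth as a covariate; over the alternatives the adjusted p reached 0.303 for ADM and 0.0722 for PTPRB. ANKRD37 passed narrowly (-0.57, SE 0.16, adjusted p = 0.0464) and lost its call in 13 of 21 alternatives, 6 of them leaving out tributyltin replicate 2, 3 or 5 or bisphenol A replicate 1, 2 or 3. The ranges of BHLHE40, PTPRB and ANKRD37, 3 of 8 members, did not overlap between the groups, as for 2.83% of all genes, while ADM did through bisphenol A replicate 3 at 1.71 FPKM. VEGFA was -0.31 (adjusted p = 0.0632), DDIT4 -0.54 (0.127), NDRG1 -0.43 (0.183) and CA9 0.02 (0.979, 95% interval -0.44 to 0.48). With the replicate number as a block VEGFA and DDIT4 were called as well, and VEGFA was also called with the feeder covariate.

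Against the mean of atrazine, DEHP and PFOA, all 8 members had negative log2 differences with tributyltin, as did 52.9% of all genes. This held against the pooled mean only. ADM had a higher mean with tributyltin (1.77 FPKM) than with PFOA (1.59) or DEHP (1.56), and PTPRB (3.46 FPKM) than with PFOA (3.41). NDRG1 alone was called (-0.62, SE 0.14, limma adjusted p = 0.0199), where 0.641% of all genes were called lower, 0.397% higher and 1.04% in either direction. The call was lost without tributyltin replicate 2, 3 or 5. With the replicate number as a block 4 members were called, BHLHE40, VEGFA and DDIT4 besides NDRG1; same-numbered tributyltin libraries deviated together with those of atrazine and DEHP but not with all of PFOA. Without the block BHLHE40 was -0.31 (adjusted p = 0.113), VEGFA -0.25 (0.116) and DDIT4 -0.35 (0.375). ADM was -0.07 (95% interval -0.39 to 0.24) and PTPRB -0.11 (-0.31 to 0.10), neither called, although both were called lower than with bisphenol A.

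**Figure D2:**
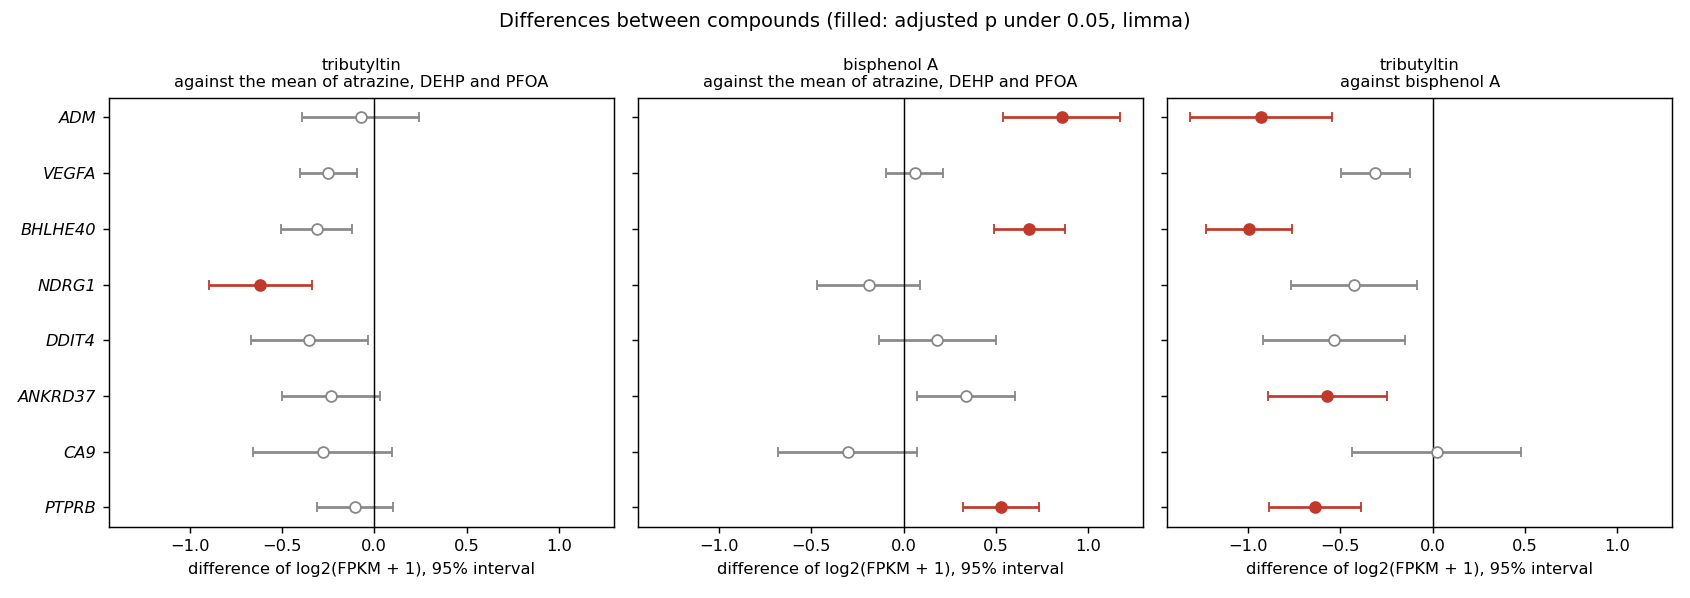
Differences of log2(FPKM + 1) between compounds for the 8 genes (horizontal axes; points are limma estimates, whiskers 95% intervals); filled red points have an adjusted p under 0.05 over all genes. BHLHE40, ADM and PTPRB were called higher with bisphenol A than with atrazine, DEHP and PFOA, and NDRG1 alone was called lower with tributyltin than with those 3.

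Among atrazine, DEHP and PFOA themselves, limma called 0 members and 0% of all genes, by an F test over the 3 groups. At an unadjusted p under 0.05 there were 4 members, ADM, BHLHE40, CA9 and PTPRB, and 341 of 11080 genes, and limma voom called 0 members. BHLHE40 had the smallest p of the 8 (0.00029, adjusted p = 0.654 by limma). Its 5 atrazine libraries were all above the 9 libraries with DEHP and PFOA, but the share of all genes with such a gap was not counted.

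Across libraries the members fell into separate patterns. Over the 29 libraries the log2 values of BHLHE40 correlated with those of PTPRB at a Pearson r of 0.85 and with ADM at 0.84, and NDRG1 with CA9 at 0.66. After each group's mean was removed, NDRG1 and CA9 had r = 0.67, ADM and BHLHE40 0.54, BHLHE40 and PTPRB 0.52, and DDIT4 and ANKRD37 0.47. BHLHE40 and CA9 ran opposite within groups (-0.44). VEGFA had no within-group r beyond 0.28 in size. These are descriptions over libraries that share plates and, for low genes, counting error.

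**Figure D3:**
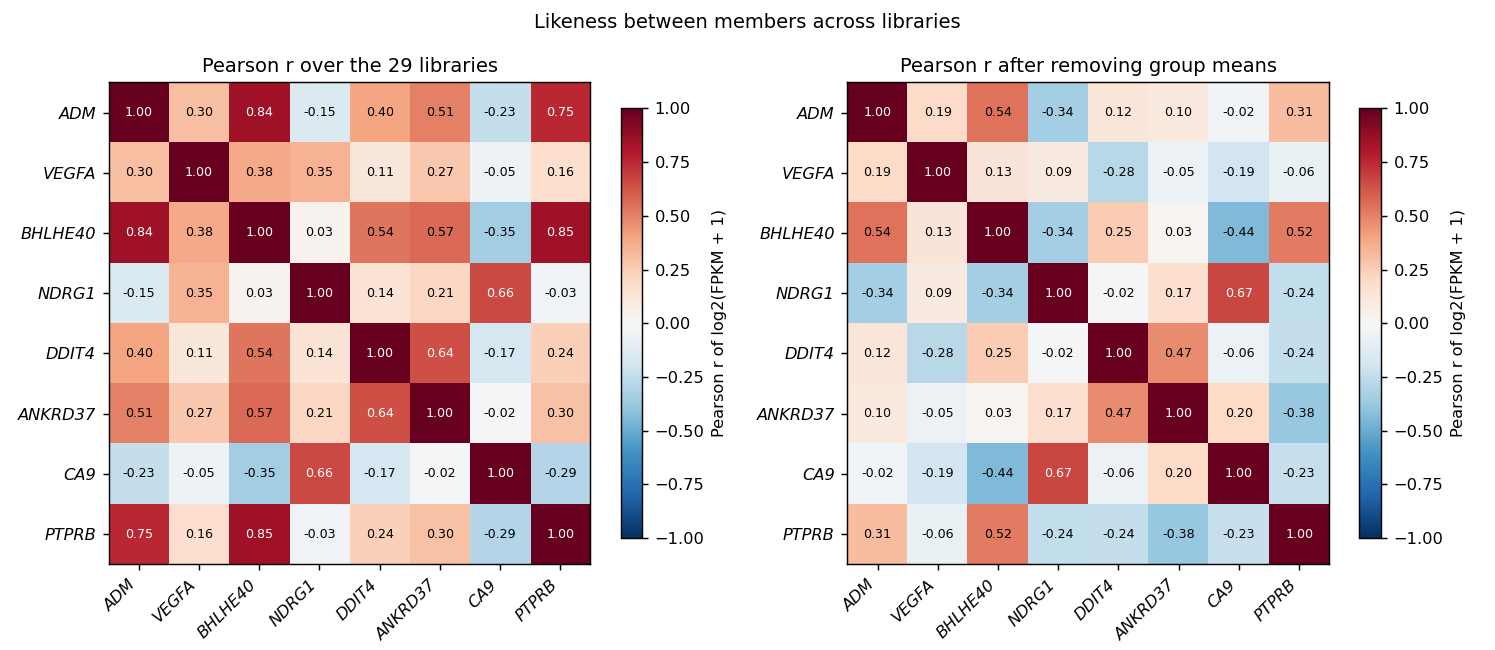
Pearson r of log2(FPKM + 1) between each pair of the 8 genes, over the 29 libraries (left) and after group means were removed (right); colour runs from -1 to 1. ADM, BHLHE40 and PTPRB form a block at left, and NDRG1 with CA9 has the highest value at right, 0.67.

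Replicate numbers, which the labels do not link to a shared origin, moved with some members. BHLHE40 and ADM were above the group mean in library 2 of 6 of 6 groups, by 0.22 and 0.19 on average on the log2 scale, and BHLHE40 was below it in library 3 of 6 of 6. DDIT4 was above in library 5 of 5 of 5 groups, by 0.40, and below in library 3 of 6 of 6, by -0.33. VEGFA and NDRG1 were below in library 5 of 5 of 5 groups, by -0.15 and -0.10. The difference of DDIT4 between numbers 3 and 5 was thus larger than its difference between vehicle and tributyltin, -0.48. Within groups DDIT4 also correlated with the median of the 6 fibroblast markers past the filter (r = 0.58, 29 libraries) and VEGFA inversely (-0.46). The rest of the 13 markers had means under 1 FPKM, so this median does not stand for the whole list. Its part in these values was not tested.

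**Figure D4:**
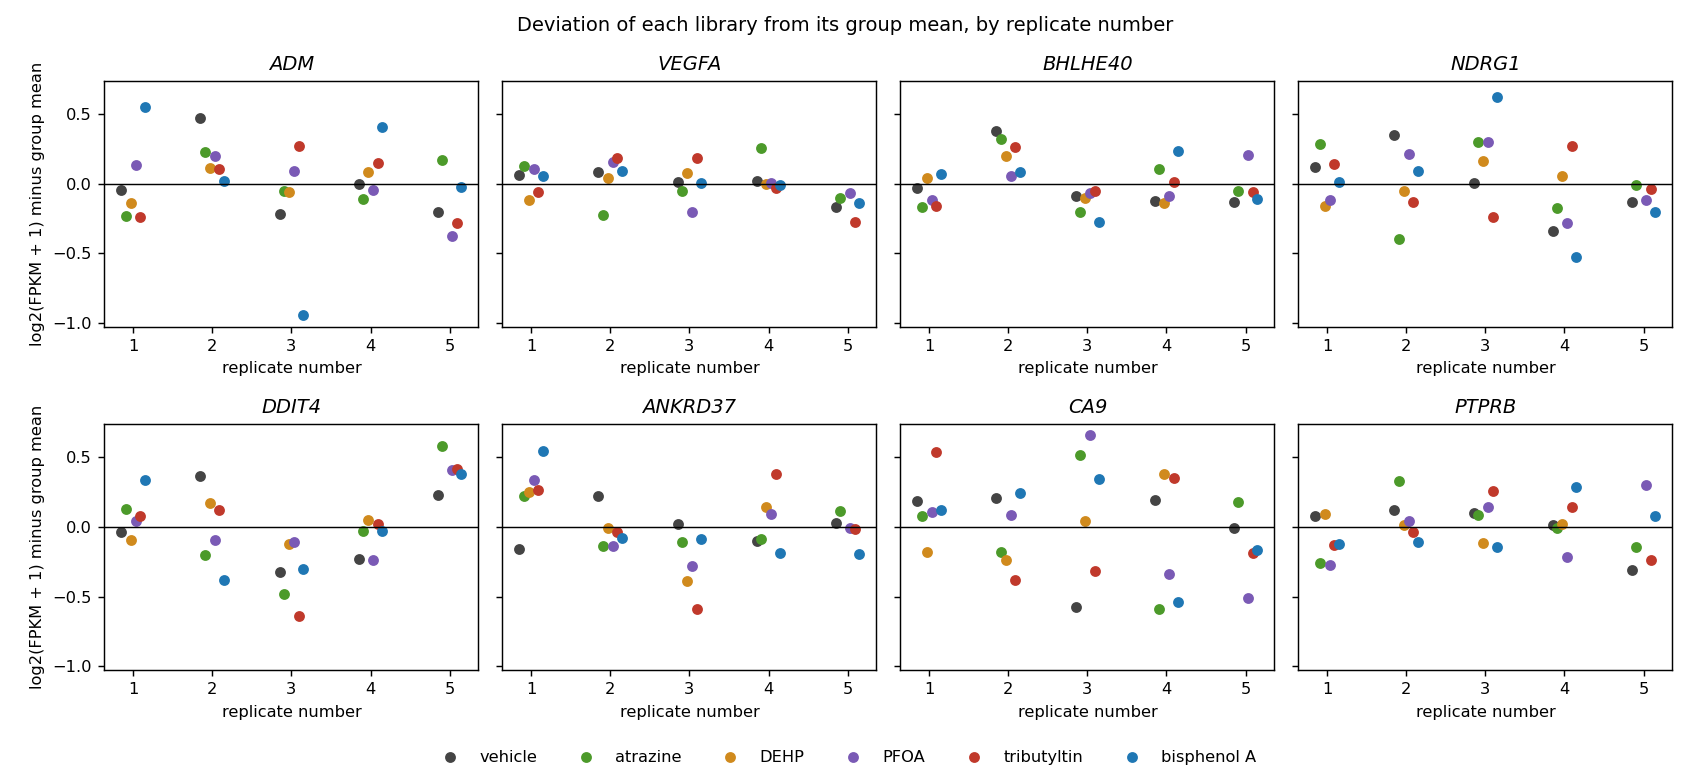
Deviation of each library from its group mean, in log2(FPKM + 1), against replicate number for the 8 genes; colours are groups, and DEHP has no number 5. DDIT4 lies above 0 in all 5 libraries numbered 5 and below in all 6 numbered 3, and BHLHE40 lies above 0 in all 6 numbered 2.

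The spread between wells differed between members. The pooled within-group SD on the log2 scale was 0.18 for BHLHE40 and 0.20 for PTPRB, near the median gene at 0.18. It was lower for VEGFA, at 0.14, with 24.9% of genes below it. For ANKRD37, NDRG1, ADM, DDIT4 and CA9 it was 0.26 to 0.38. For DDIT4, with 173 to 1501 reads per library, the coefficient of variation in vehicle was 20.9%, where counting reads alone gives 3.52%. For ANKRD37 in vehicle these were 12.7% and 15.8%, while with tributyltin they were 30.9% and 19.8%, with DEHP 23.4% and 17.7% and with PFOA 20.6% and 17.6%. ADM with bisphenol A, at 9 to 36 reads, had 41.9% against 24.3%.

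**Figure D5:**
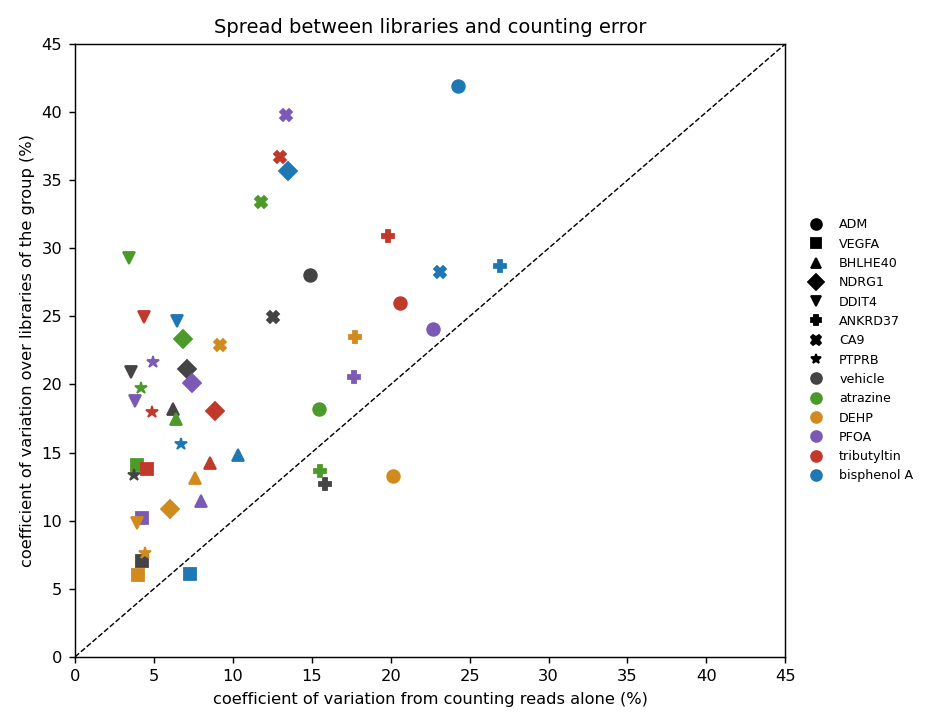
Coefficient of variation of FPKM over the libraries of a group (vertical axis, %) against the value expected from counting reads alone (horizontal axis, %), for 8 genes (symbols) in 6 groups (colours); the dashed line marks equality. DDIT4 lies far above the line at 3.52% expected and 20.9% found in vehicle, and ANKRD37 in vehicle lies under it.

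Other HIF-responsive genes had a different order of compounds by their median difference from vehicle. Of 29 tested outside glycolysis that are no members, 15 were lower with tributyltin, 7 with atrazine, 5 with PFOA, 1 with DEHP and 0 with bisphenol A by limma, and none was higher; with bisphenol A 3 had an unadjusted p under 0.05 and limma voom called 0. Their median log2 differences were -0.45, -0.23, -0.25, -0.13 and -0.05, against -0.47, 0.05, -0.10, -0.32 and 0.15 for the 8 members and -0.02 to 0.00 for all genes. By these medians alone, the members and this list ranked atrazine and DEHP in opposite order. For example the secreted hormone STC1 had 29.3 FPKM in vehicle, 15.7 with atrazine and 18.1 with DEHP, while BHLHE40 had 7.75, 7.18 and 4.81 FPKM. NDRG1 and CA9 went the other way, with higher means with DEHP (7.62 and 7.32 FPKM) than with atrazine (6.26 and 4.72 FPKM). The remaining members had higher means with atrazine. The difference between the 2 lists was not tested, and both were chosen with earlier results known, so their order is a description. The count for atrazine was 4 without vehicle replicate 2, that for PFOA 2 to 3 without vehicle replicate 2 or 3 or any PFOA replicate, and that for DEHP 0 without vehicle replicate 1, 2 or 3 or any DEHP replicate and 2 without vehicle replicate 4. On the groups compared alone the counts were 7 with tributyltin, 2 with atrazine, 2 with PFOA and 0 with DEHP. With the replicate block PFOA had 10 and DEHP 5, and with library weights 10 and 6. Vehicle libraries are shared by the 5 comparisons.

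Between compounds the same list had 14 genes lower with tributyltin than with bisphenol A, and KDM3A, RIOK3 and STC1 higher with bisphenol A than with the mean of atrazine, DEHP and PFOA. With log2 depth as a covariate these counts were 7 and 1, and the first was 3 on those groups alone. With the replicate block the second was 9. STC1 differed by 0.67 in the latter (limma adjusted p = 0.000333), close in size to BHLHE40. Of 8 genes of the HIF machinery, EGLN1, the oxygen sensor and itself a HIF target, was the only one called against vehicle, lower with tributyltin (-0.98), atrazine (-0.74) and PFOA (-0.79). HIF1A, the alpha subunit, had 111 FPKM in vehicle and 139 FPKM with tributyltin (0.32, adjusted p = 0.194). Of 21 glycolysis genes 4 were lower with tributyltin (9 in the fit that adds the replicate block), and 3 each with atrazine and PFOA; for DEHP the count was 0, with 5 at an unadjusted p under 0.05 and 1 by limma voom.

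The genes most like the mean of the 8 members over the 29 libraries were LONP2, a peroxisomal protease (r = 0.85), L1CAM (0.78), PFKFB4 (0.77), DCLK1 (0.77), STC1 (0.76), FGF11 (0.76), HIVEP2 (0.76) and EPHA3 (0.75). PTPRB was closest to BHLHE40 (0.85), HIVEP2 (0.85) and the collagen COL11A1 (0.83), and ADM to BHLHE40 (0.84) and PICALM (0.81). NDRG1 was closest to the neurotrophin receptor NGFR (0.82), DDIT4 to USP22 (0.80), VEGFA to C1orf63 (0.78), CA9 to KRTCAP3 (0.74) and ANKRD37 to MED24 (0.72). Each of these was the highest of all genes past the filter, so the values are descriptions.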

How the data were processed

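RNA of 29 wells was sequenced as 50 nt reads from 100 ng of RNA each, about 24 h after a change of medium, per the labels' protocols. The authors deposited FPKM values per gene, scaled for transcript length and library size. TopHat2 2.1.1, SAMtools and Cuffdiff 2.2.1 are named in the submitters' processing notes, with the mouse build GRCm38.p5 in no stated role; the rhesus build, the handling of feeder reads and the use of strand are not given in the sources used here. Human symbols and Entrez identifiers name the rows, and no coordinates or sequences were used.

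The 11080 of 16048 genes averaging 1 FPKM or more were fitted as log2(FPKM + 1) with limma 3.58.1 in R 4.3.3, all 6 groups in 1 fit with a mean-variance trend, two-sided, with Benjamini-Hochberg adjustment per comparison. The test was also tried on simulated data. Low values fall on steps of 1 read, and 98.1% of 17118 such values, from 1557 genes, fell within 0.1 of a whole step. Whole reads within 0.05 were so recovered for 9505 genes (85.8% of those tested) and tested with limma voom as an alternative. Expected counting error and reads per library come from these and cover counting error only.

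The members, the 9 gene lists and the naming rule were chosen with earlier results of these data known. Named are the members, up to 4 genes per list with the smallest p for tributyltin against vehicle, 10 receptors and relatives, and the genes most correlated with the members. Same-numbered libraries of vehicle and tributyltin deviated together over all genes in every pair (lowest of 5 correlations 0.175, over the limit of 0.1). This held for no other comparison with vehicle, so the block is printed beside that comparison. Elsewhere the block is printed where it moves a call of a member, and for some of the list counts.

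Alternatives were pseudocount 0.1, no filter or 5 FPKM, 2 scalings, the block, library weights, fits on the groups compared and leaving out each library. Fits without bisphenol A, with a feeder or depth covariate, on recovered reads and on replicate numbers 2 to 4 alone were added after seeing the data. The feeder covariate was the median of the 6 fibroblast markers past the filter.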

Additional observations from a re-analysis of the deposited data

Results flagged for a closer look

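Of 48 groups of member values (8 genes in 6 groups), 4 held a library that stood apart from the others of its group by a gap test at the 95% level, which chance alone gives in about 1 in 20 groups. Vehicle replicate 2 was the highest of its group in ADM, at 4.64 FPKM, and in BHLHE40, at 10.2 FPKM. Vehicle replicate 5 was the lowest in PTPRB, at 4.22 FPKM. Bisphenol A replicate 1 was the highest in ANKRD37, at 8.13 FPKM.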

How the results depend on the processing

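Of 668 values between compounds under the alternatives, 621 kept their direction and side of the threshold, 28 lost the call, 9 gained it and 10 turned sign; of 884 values against vehicle 879 moved by less than the spread and 5 by more. The count of members called was 0 under every alternative for atrazine and for bisphenol A against vehicle. For tributyltin against vehicle, 2 in the fit as reported, it was 1 with a filter at 5 FPKM, 1 on the groups compared alone, 0 with replicate numbers 2 to 4 alone, 3 with the replicate block and 1 to 2 with a library left out. For PFOA, 2 as reported, it was 1 without a filter, 1 with a filter at 5 FPKM, 0 with median-of-ratios scaling, 0 on the groups compared alone, 1 with the depth covariate, 0 with replicate numbers 2 to 4 alone and 0 to 2 with a library left out. For DEHP, 0 as reported, it was 1 with the replicate block, 3 with library weights and 1 by limma voom. For tributyltin against the mean of atrazine, DEHP and PFOA, 1 as reported, it was 4 with the replicate block, 2 with library weights, 2 with the feeder covariate, 0 with replicate numbers 2 to 4 alone and 0 to 1 with a library left out. For bisphenol A against that mean, 3 as reported, it was 1 with a filter at 5 FPKM, 0 with the depth covariate, 1 with replicate numbers 2 to 4 alone and 2 to 3 with a library left out. For tributyltin against bisphenol A, 4 as reported, it was 1 with a filter at 5 FPKM, 1 on the groups compared alone, 2 with the depth covariate, 1 with replicate numbers 2 to 4 alone and 3 to 4 with a library left out. Among atrazine, DEHP and PFOA, 0 as reported, the replicate block called 1. Some further fits added members to those called in the fit as reported. Against vehicle, ADM was added with tributyltin and with PFOA in fits without bisphenol A libraries, and with PFOA under library weights. In tributyltin against bisphenol A, the block added VEGFA and DDIT4, and the feeder covariate added VEGFA. The filter at 5 FPKM removes ADM, ANKRD37, CA9 and PTPRB from the test; the cause of the other shifts was not tested. Of 40 differences of a member from vehicle, 12 turned sign under at least 1 alternative, and none of these was called. Between compounds those that turned sign, all without a call, were ADM with tributyltin against the mean of 3 compounds (0.051 with replicate numbers 2 to 4 alone); with the depth covariate, NDRG1 (0.060) and DDIT4 (-0.48) with bisphenol A against that mean, and DDIT4 (0.084) and CA9 (-0.16) with tributyltin against bisphenol A; and CA9 in the last comparison with replicate numbers 2 to 4 alone (-0.11) and without tributyltin replicate 1 or 4 or bisphenol A replicate 4 or 5 (-0.11 to 0.12 over all fits with a library left out). The replicate block changed no other member's call against vehicle.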
